A study of Mus musculus with 4 samples.

Results

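CD8 and CD4 T cells from the tumour-draining lymph nodes of doxorubicin-treated mice were compared with those of control-treated mice of the control genotype, and each gene difference was sorted by whether both lineages or 1 of them showed it. The cells came from 1 library titled WT-DOX and 1 titled WT-CTRL. Barcodes with at least 300 detected genes and at most 10% mitochondrial UMIs (unique molecular identifiers, each a tag of 1 captured RNA molecule) were kept, which removed 13 of 25266. A CD8 cell had at least 2 UMIs of Cd8a and Cd8b1 together and none of Cd4. A CD4 cell had at least 1 UMI of Cd4 and none of Cd8a or Cd8b1, and neither kind had a UMI of Cd79a. This gave 4923 CD8 cells in WT-CTRL and 5109 in WT-DOX, and 2191 and 1825 CD4 cells, or 14048 of the 25253 kept barcodes and of 48597 in all 4 libraries. Of the 11205 kept barcodes in neither gate, 8600 had no UMI of the CD4 or CD8 genes, 1827 had a single CD8 UMI, 629 had UMIs of both lineages and 149 had a UMI of Cd79a.

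All mice carried tumours of MC38-OVA, a mouse colon carcinoma line that expresses ovalbumin, and flow cytometry was used to sort viable T cells from the draining nodes. WT-CTRL is labelled control for genotype and for treatment, and WT-DOX control for genotype and doxorubicin for treatment. The other 2 libraries, KO-CTRL and KO-DOX, came from mice with a knockout of PD-L1 in dendritic cells under the same 2 treatments and were used here only as a second, separate pair. The sources used here do not state the alleles of the control mice, the Cre driver of the knockout, the vehicle, the dose, the time after treatment, the age or how many mice gave a library. Each group is 1 library, so no difference below has a replicate check, no test between groups was possible, and calls were made by size alone. Intervals are 95% and cover counting error only.

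Doxorubicin is an anthracycline that stops topoisomerase II on DNA and breaks the strands, which activates the transcription factor p53. Targets of p53 include Bbc3, which encodes the pro-apoptotic protein PUMA, and Cdkn1a, which encodes the cell cycle inhibitor p21. Resting T cells survive on interleukin-7, whose receptor chain is encoded by Il7r, and FOXO transcription factors maintain both Il7r and several genes that restrain growth. Lymph nodes that drain a tumour hold many naive T cells and few dividing ones, and the dividing cells hold far more RNA.

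Promoters of 4 genes picked from the classes below are shown because each carries letters known from the control of its gene family. They are the 250 bases before the RefSeq start (GRCm38.p6), read 5′ to 3′ on the strand of the gene, with the searched motifs in capitals on either strand. The Bbc3 window, chr7:16310011-16310260 on the plus strand, holds 1 FOXO site (GTAAACA, here in its reverse complement) and lies in the first intron of a longer annotated Bbc3 transcript. The Mki67 window, chr7:135716380-135716629 on the minus strand, holds 3 CCAAT boxes (CCAAT) and 2 cell cycle homology regions (TTTGAA). The Prc1 window, chr7:80294226-80294475 on the plus strand, holds 1 of each and overlaps a transcript of Rccd1 on the opposite strand. The Irgm2 window, chr11:58214727-58214976 on the plus strand, holds 1 interferon-stimulated response element (TTTC and, after 2 bases of any kind, TTTC again, here in its reverse complement) and lies in the first intron of a longer annotated Irgm2 transcript, before the start of the shorter ones.
Bbc3: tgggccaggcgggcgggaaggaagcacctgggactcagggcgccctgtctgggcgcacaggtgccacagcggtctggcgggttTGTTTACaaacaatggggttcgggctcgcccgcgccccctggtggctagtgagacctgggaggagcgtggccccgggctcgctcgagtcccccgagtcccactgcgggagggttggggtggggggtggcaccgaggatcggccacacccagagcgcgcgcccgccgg
Mki67: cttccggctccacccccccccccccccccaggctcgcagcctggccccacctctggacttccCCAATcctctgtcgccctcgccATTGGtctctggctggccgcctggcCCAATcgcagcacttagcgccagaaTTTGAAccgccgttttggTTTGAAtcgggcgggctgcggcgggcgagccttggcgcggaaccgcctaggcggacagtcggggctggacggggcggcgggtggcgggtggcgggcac
Prc1: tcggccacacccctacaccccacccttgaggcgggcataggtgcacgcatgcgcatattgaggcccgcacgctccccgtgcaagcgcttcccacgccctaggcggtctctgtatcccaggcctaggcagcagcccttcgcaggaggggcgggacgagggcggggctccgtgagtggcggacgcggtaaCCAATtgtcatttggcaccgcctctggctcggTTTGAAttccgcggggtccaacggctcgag
Irgm2: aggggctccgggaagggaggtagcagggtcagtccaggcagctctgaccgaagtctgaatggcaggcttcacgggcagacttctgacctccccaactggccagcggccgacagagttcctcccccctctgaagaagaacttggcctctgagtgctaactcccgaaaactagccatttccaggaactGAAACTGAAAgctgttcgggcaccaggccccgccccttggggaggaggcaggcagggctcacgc

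A match is a description of letters, not a bound site. The letters were counted in 300-base windows around the start. The FOXO letters stood in 2 of 17 genes higher in both lineages that had a window (Bbc3 and Ccnd3, 11.8%). The share was 3.39% of 3565 genes at the level used below. These letters also stood in 2 of 16 genes lower in CD8 cells only (12.5%), and in no gene of the other classes. The CCAAT letters stood in 10 of 16 genes lower in CD8 cells only (62.5%) against 41.3%, and TTTGAA in 3 of 16 (Hjurp, Prc1 and Mki67, 18.8%) against 13.9%. Neither was particular to that class. CCAAT stood in the same share of genes lower in CD4 cells only (5 of 8, 62.5%). It stood in 8 of 17 genes higher in both lineages, 20 of 51 lower in both and 4 of 11 higher in CD4 cells only. TTTGAA stood in 2 of 8 genes lower and 3 of 11 higher in CD4 cells only. It also stood in 2 of 17 genes higher in both lineages and 13 of 51 lower in both (25.5%). The interferon element stood in 2 of those 51 (Irgm2 and Rpl38, 3.92%) against 4.63%, which is the background share.

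The gates separated the lineages, in part by construction. Summed over 6 CD8 lineage genes, CD8 cells held 2369 CPM (UMIs of a gene scaled to the same total in every library) in WT-CTRL and 2414 in WT-DOX, and CD4 cells 115 and 92.7. Over 5 CD4 lineage genes CD4 cells held 1011 and 971 CPM, and CD8 cells 43.1 and 44.2. Cd4, Cd8a, Cd8b1 and Cd79a set the gates and are not results. The CD8 sum includes Cd8a and Cd8b1 and the CD4 sum Cd4, each 0 in the other lineage by rule. Outside these genes, Nkg7 in WT-CTRL stood at 578 CPM in CD8 and 35.9 in CD4 cells, and Izumo1r at 24.8 and 196. The other genes of both lists were also higher in their own lineage. Markers of other cells were low but not level: 16 B and plasma cell genes summed to 338 and 266 CPM in CD8 cells and 369 and 357 in CD4 cells, of which Ighm gave 145 and 150, and 199 and 208, while Igkc was listed at 0. H2-Aa, an MHC class II gene of antigen-presenting cells, stood at 25.6 and 6.76 CPM in CD8 cells and 9.20 and 0.579 in CD4 cells. The 15 myeloid and dendritic cell genes summed to 90.4 and 73.5 CPM in CD8 cells and 68.0 and 76.5 in CD4 cells, with 4 to 8 of them at 0, and 7 NK cell genes to 171 and 129 and to 2.77 and 2.60. The part of such cells or of their free RNA in the results was not tested.

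Depth was close between the libraries. The median CD8 cell held 3602 UMIs in WT-CTRL and 3555 in WT-DOX, and the median CD4 cell 3178 and 2989. The summed lineages held 20907668 and 20861880 UMIs in CD8 cells and 9019193 and 6912725 in CD4 cells, so CD4 values are less precise. CD8 cells were 38.4% (37.6 to 39.3, exact Clopper-Pearson) of WT-CTRL barcodes and 41.1% (40.2 to 42.0) of WT-DOX barcodes, and CD4 cells 17.1% (16.4 to 17.8) and 14.7% (14.1 to 15.3). WT-CTRL and WT-DOX shared 221 barcode sequences, against 175 to 271 for the other library pairs. Both lineages of a treatment come from the same library, so a shared difference is 1 library pair seen in 2 kinds of cells and not a repeat. In summed UMIs, fewer cells expressing a gene and less of its RNA in each cell cannot be told apart.

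In each lineage, a gene entered the comparison where it reached 30 CPM in either library, and it was called where its log2 fold, WT-DOX over WT-CTRL on CPM plus 1, was at least 0.32 (1.248-fold) either way. More genes were lower than higher. In CD8 cells 34 of 4585 genes were higher (0.742%) and 134 lower (2.92%), and in CD4 cells 81 of 5044 were higher (1.61%) and 138 lower (2.74%). The medians over all genes were -0.02 and 0.01. Of 4461 genes at the level in both lineages, 22 were higher in both (0.493%), among them Bbc3, Ddit4 and Il7r, and 62 lower in both (1.39%), among them Rps29, Irgm2 and Celf2.

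A gene was assigned to 1 lineage where it was called there, stood under 0.16 that way in the other, and the interval of the difference of the log2 folds left out 0. That held for 29 genes lower in CD8 cells (0.65%), 2 higher in CD8 cells (0.0448%), 16 higher in CD4 cells (0.359%) and 11 lower in CD4 cells (0.247%). Shared genes thus numbered 84 and one-lineage genes 58. The rule left 98 genes that were called in 1 lineage but placed in neither kind, 3 genes called in opposite directions, and 4218 called in neither. Of the 22 genes higher in both, 20 stayed in that class under equal weights for all cells, and of the 29 lower in CD8 cells only, 8 did, with 16 genes in that class under this weighting. At level floors of 10 and 100 CPM the shared lower count was 106 and 26, the CD8-only lower count 85 and 8, and the CD4-only higher count 77 and 0.

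**Figure D1:**
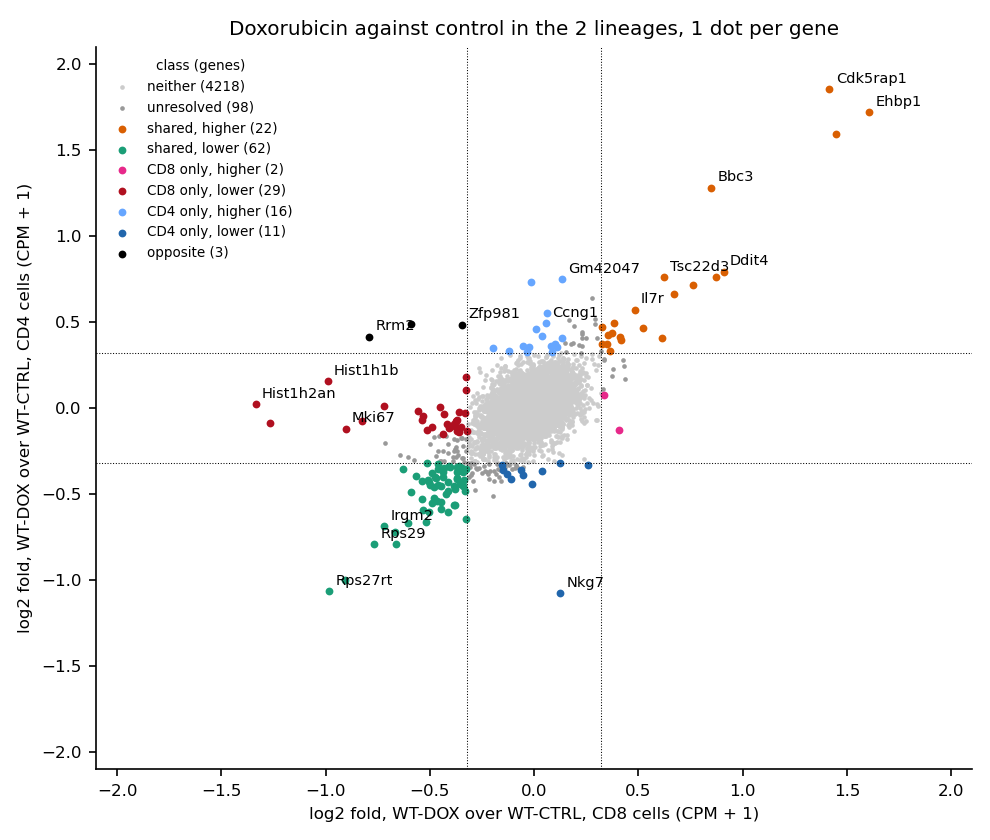
Each point is 1 of 4461 genes, with its log2 fold (WT-DOX over WT-CTRL, CPM plus 1) in CD8 cells on the x axis and in CD4 cells on the y axis, coloured by class, and dotted lines at 0.32 either way. Shared genes lie along the diagonal, genes lower in CD8 cells only lie to the left near the level of 0 in CD4 cells, and Zbed5, at 6.95 and 7.16, lies outside the axes.

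Bbc3, Ddit4 and Tsc22d3 were among the genes higher in both lineages. Bbc3 stood at 23.8 CPM (21.7 to 26.0) in WT-CTRL and 43.6 (40.8 to 46.5) in WT-DOX CD8 cells, a log2 fold of 0.85 (0.70 to 1.0). In CD4 cells it stood at 17.9 CPM (15.2 to 20.8) and 44.8 (39.99 to 50.1), a log2 fold of 1.28 (1.02 to 1.54). WT-DOX was thus at nearly the same Bbc3 level in both lineages, while WT-CTRL stood higher in CD8 cells, and the CD8 minus CD4 difference of the log2 folds was -0.43 (-0.74 to -0.13). KO-CTRL and KO-DOX were at 31.2 and 35.8 CPM in CD8 cells and 29.1 and 31.7 in CD4 cells, between both libraries of the control genotype. With each cell thinned at random to 1500 UMIs, which left out 112 and 100 shallower CD8 cells and 99 and 80 CD4 cells, Bbc3 was detected in 3.60% and 6.27% of CD8 cells, a ratio of 1.74 (1.45 to 2.09), and in 3.06% and 7.11% of CD4 cells, a ratio of 2.32 (1.73 to 3.12). Without thinning the shares were 9.30% and 14.8%, and 6.71% and 14.1%.

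Ddit4, which encodes the mTORC1 inhibitor REDD1, went from 17.6 to 33.9 CPM in CD8 cells, a log2 fold of 0.91 (0.74 to 1.08), and from 35.4 to 62.1 CPM in CD4 cells, 0.79 (0.59 to 1.0). Its level in CD4 cells was above that in CD8 cells in all 4 libraries, and the folds of the lineages differed by 0.12 (-0.15 to 0.38), an interval that holds 0. Tsc22d3, which encodes the glucocorticoid-induced leucine zipper protein GILZ, went from 135 to 208 CPM in CD8 cells, 0.62 (0.56 to 0.69), and from 84.8 to 144 CPM in CD4 cells, 0.76 (0.63 to 0.90). These 2 genes were also higher in KO-DOX than in KO-CTRL in both lineages, with log2 folds of 0.46 and 0.65 for Ddit4 and 0.34 and 0.56 for Tsc22d3 in CD8 and CD4 cells. Pik3ip1, which encodes an inhibitor of PI3 kinase, was higher by 0.35 and 0.42, and Btg2, an antiproliferative gene of quiescent lymphocytes, by 0.33 and 0.37. Pink1, the kinase that marks damaged mitochondria, was higher by 0.37 and 0.44.

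Among the other genes higher in both lineages, Il7r went from 414 to 578 CPM in CD8 cells, a log2 fold of 0.48 (0.44 to 0.52), and from 287 to 428 CPM in CD4 cells, 0.57 (0.50 to 0.65). At 1500 UMIs a cell, Il7r was detected in 43.7% of WT-CTRL and 53.3% of WT-DOX CD8 cells, a ratio of 1.22 (1.17 to 1.27), and in 32.7% and 44.0% of CD4 cells, a ratio of 1.35 (1.24 to 1.46). Without thinning the ratios were 1.12 and 1.19. KO-CTRL held 516 CPM of Il7r and KO-DOX 567 in CD8 cells, and 352 and 404 in CD4 cells, so that WT-CTRL was the lowest library in both lineages. Socs3, a feedback inhibitor of STAT3 signals, was higher by 0.41 and 0.40, and Cxcr4, the receptor for CXCL12, by 0.61 and 0.41. Ccnd3, which encodes the cyclin D3 of lymphocytes, was at 202 and 269 CPM in CD8 cells and 217 and 290 in CD4 cells, a log2 fold of 0.41 in each. The mRNA decay factor Zfp36l2 was higher by 0.38 and 0.49, and the MAP kinase phosphatase Dusp2 by 0.37 and 0.33.

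Zbed5, Ehbp1, 9930111J21Rik2 and Cdk5rap1 had the largest shared folds, ranked by the smaller of both lineages. Zbed5 was nearly absent from WT-CTRL, at 1.10 CPM in CD8 cells and 0.998 in CD4 cells, and stood at 258 and 285 in WT-DOX. At 1500 UMIs a cell it was detected in 0.187% of WT-CTRL and 29.5% of WT-DOX CD8 cells (0.447% and 55.8% unthinned). KO-CTRL and KO-DOX held 1.04 and 1.12 CPM in CD8 cells, so WT-DOX stood alone among the 4 libraries. 9930111J21Rik2, at 32.2 and 89.5 CPM in CD8 cells and 32.4 and 99.7 in CD4 cells, was likewise high in WT-DOX only, with 34.9 and 27.0 in KO-CTRL and KO-DOX CD8 cells. Ehbp1, which encodes an EH domain-binding protein, was the reverse: WT-CTRL was the low library, with 22.6 CPM in CD8 cells against 70.9 (WT-DOX), 46.1 (KO-CTRL) and 58.9 (KO-DOX). Cdk5rap1, which encodes a mitochondrial tRNA-modifying enzyme, also had its lowest level in WT-CTRL, at 11.7 CPM against 32.9, 27.5 and 41.3. Slc15a2, a peptide transporter, went from 99.8 to 144 CPM in CD8 cells and from 97.5 to 135 in CD4 cells, and was higher by 0.52 in the CD8 cells of both pairs. Hnrnpa0 was higher by 0.87 and 0.76, but in KO-DOX CD8 cells it was lower than in KO-CTRL by a log2 fold of -0.30.

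**Figure D2:**
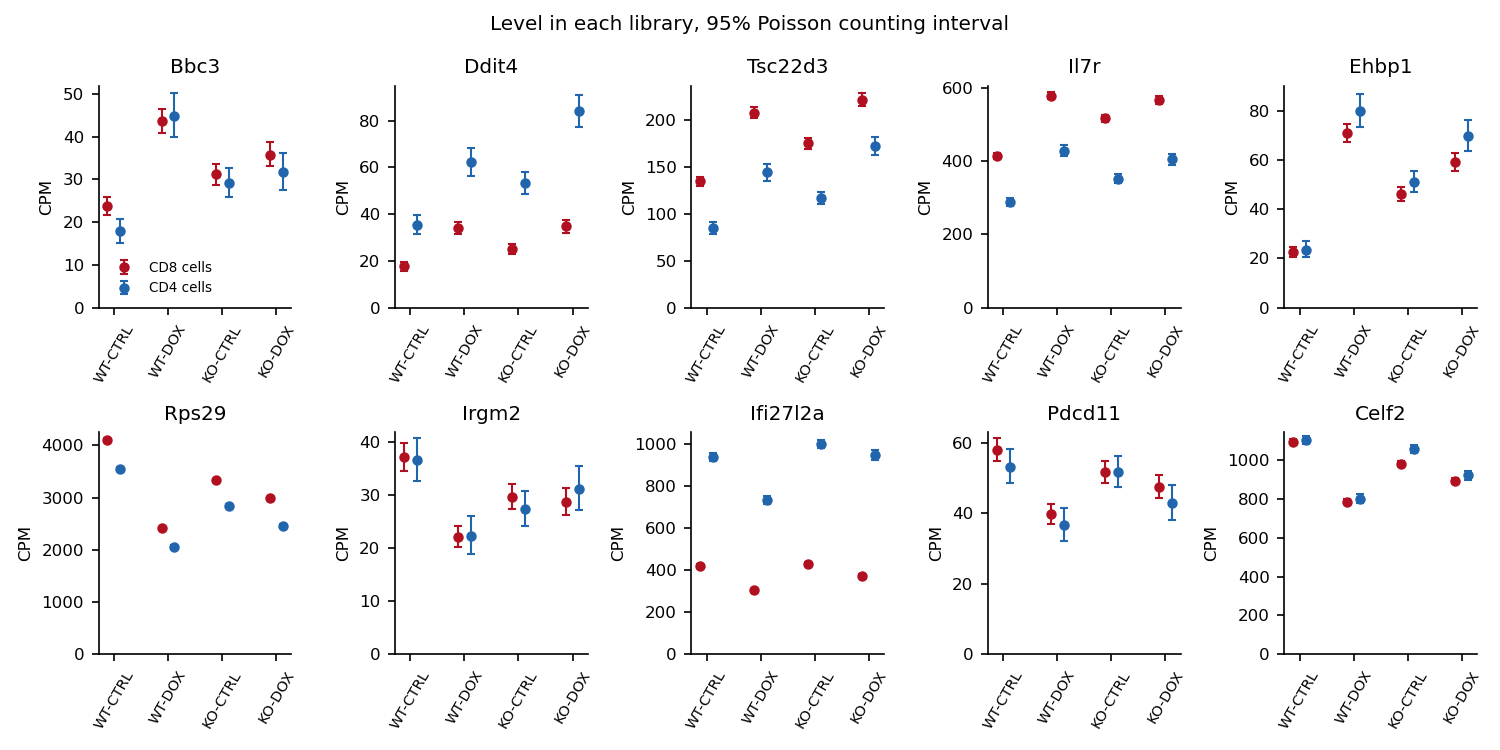
CPM of 10 genes called in both lineages, in each of the 4 libraries, for CD8 and CD4 cells, with 95% Poisson intervals that cover counting error only. Bbc3 and Il7r have their lowest point in WT-CTRL and their highest in WT-DOX, Ddit4 is higher in the doxorubicin library of both pairs, and Rps29, Irgm2, Pdcd11 and Celf2 have their lowest point in WT-DOX.

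The 62 genes lower in both lineages included 4 ribosomal protein genes. Rps29 went from 4113 to 2417 CPM in CD8 cells, a log2 fold of -0.77, and from 3545 to 2049 CPM in CD4 cells, -0.79. Rps28 was at -0.54 and -0.59, Rpl38 at -0.50 and -0.61, and Rps27rt, a copy of Rps27 that may share its reads, at -0.98 and -1.07. The other 73 of 77 ribosomal protein genes were not in this class, and the median over the 77 was 0.10 in CD8 cells and 0.04 in CD4 cells. So the ribosomal protein genes as a family were not lower. Atp5k, a small subunit of ATP synthase, was at -0.67 and -0.72. Of 60 protein-coding genes in the class, 7 (11.7%) had a longest transcript under 700 nucleotides, against 1.89% of all genes compared, and the part of transcript length in these values was not tested. Rps29 in KO-CTRL and KO-DOX, at 3331 and 2989 CPM in CD8 cells, lay between the control genotype's libraries.

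Other genes of the class are given by name, chosen after their values were seen. Pdcd11, an rRNA processing factor, went from 58.1 to 39.7 CPM in CD8 cells and from 53.2 to 36.6 in CD4 cells, log2 folds of -0.54 and -0.53. Ncl, which encodes nucleolin, was at -0.36 and -0.44. Wdr43, Ddx52 and Ddx54, each with a known role in the nucleolus, were in the class too. Celf2, an RNA-binding regulator of splicing in T cells, went from 1097 to 786 CPM in CD8 cells and from 1104 to 802 in CD4 cells, -0.48 and -0.46, with levels of 984 and 895 in KO-CTRL and KO-DOX CD8 cells. Tagap, a T cell activation GTPase-activating protein, was at -0.49 and -0.55. The chromatin genes Hmgb2 and Hells were at -0.46 and -0.33 and at -0.36 and -0.34. Hells did not keep its direction in CD8 cells when dividing cells were left out (0.03).

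Interferon-induced genes gave 3 members. Irgm2, an immunity-related GTPase, went from 37.1 to 22.1 CPM in CD8 cells and from 36.5 to 22.3 in CD4 cells, log2 folds of -0.72 and -0.69 that differed by -0.03 (-0.34 to 0.28). KO-DOX held 28.7 and 31.1 CPM against 29.6 and 27.3 in KO-CTRL, so only the control genotype had a lower value past the size. Ifi27l2a went from 418 to 303 CPM in CD8 cells and from 938 to 733 in CD4 cells, -0.46 and -0.36. Rtp4, a chaperone of receptor transport, was at -0.38 and -0.56, and at -0.32 and -0.46 in the knockout-labelled pair. Over the type I interferon list, 5 of 34 genes at the level were called lower and none higher in CD8 cells (median -0.18), against 2.92% of all genes lower, and 4 of 35 lower and none higher in CD4 cells (median -0.10), against 2.74%. The medians in the knockout-labelled pair were -0.21 and -0.13, close to these values. Irgm2 is on a separate list of interferon-induced GTPases, whose other members did not all go its way. On that list 1 of 7 genes at the level was called lower in CD8 cells, with 4 above 0 (median 0.02). In CD4 cells 2 of 7 were lower (median -0.24), and none was higher in either lineage, against the same shares of all genes. S100a4, a calcium-binding protein of memory and effector cells, was at 31.8 and 21.1 CPM in CD8 cells and 78.2 and 59.2 in CD4 cells.

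Among the 29 genes lower in CD8 cells only, histone genes and Mki67 had the largest differences between the lineages. Few of the 29 kept the CD8-only call in some cell sets: 9 did in cells with no UMI of 6 B cell genes, where 9 were past the size in CD4 cells too and the CD4 median went from -0.08 to -0.20, and 5 did without the 5% of cells with the most UMIs. Hist1h1b, a linker histone made in S phase, went from 365 to 183 CPM in CD8 cells, a log2 fold of -0.99 (-1.05 to -0.94), and was at 551 and 613 CPM in CD4 cells, 0.16. The CD8 minus CD4 difference was -1.15 (-1.23 to -1.06). Hist1h2an was at 78.6 and 30.5 CPM in CD8 cells and 97.9 and 99.5 in CD4 cells, and Hist1h3c at 79.3 and 32.4, and 129 and 122. With Hist1h1e and Hist1h2ae, 5 histone genes of the large cluster on chromosome 13 were in this class, at -1.34 to -0.72 in CD8 cells and -0.08 to 0.16 in CD4 cells. Mki67, the proliferation marker Ki-67, went from 61.0 to 32.2 CPM in CD8 cells, -0.90, and was at 134 and 123 CPM in CD4 cells, -0.12, a difference of -0.78 (-0.97 to -0.60). In the knockout-labelled pair Mki67 was at 75.3 and 69.5 CPM in CD8 cells and Hist1h1b at 468 and 415, log2 folds of -0.11 and -0.17.

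Of the 29 genes, Mki67 and Prc1 are on the G2 and M phase list and none is on the S phase list. Prc1, which bundles microtubules of the midzone, was at -0.54 in CD8 and -0.07 in CD4 cells. Diaph3 was at -0.53 and -0.04, the PCNA-associated Pclaf at -0.43 and -0.03, and Ezh2, the H3K27 methyltransferase, at -0.42 and -0.09. Hjurp, the CENP-A chaperone, Rad21 of cohesin and the remodelling subunit Smarcc1 were in the class as well. Stmn1, the tubulin-binding protein of cycling cells, was at 139 and 110 CPM in CD8 cells and 207 and 234 in CD4 cells, but its CD8 value was 0.19 without dividing cells. Top2a, the topoisomerase II that doxorubicin stops, was lower in CD8 cells at 103 and 62.0 CPM, -0.72, and stood at -0.20 in CD4 cells, a value past the limit for a CD8-only call, with a difference of -0.52 (-0.67 to -0.36). Hif1a, the hypoxia-induced transcription factor, was at 220 and 171 CPM in CD8 cells and 507 and 460 in CD4 cells. Cd74, the MHC class II invariant chain, was lower in CD8 cells only at -0.56, and 1 cell gave up to 28.2% of its UMIs in a library.

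**Figure D3:**
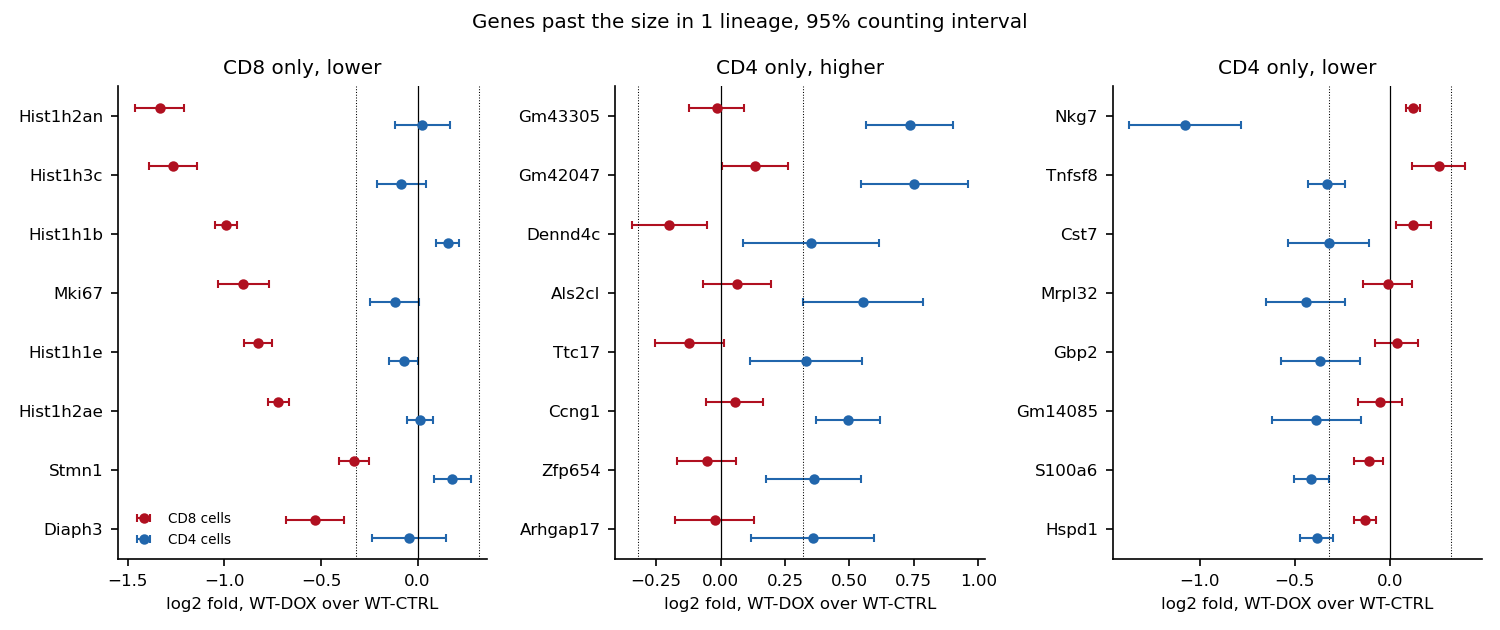
Log2 fold, WT-DOX over WT-CTRL, of 8 genes each that were lower in CD8 cells only, higher in CD4 cells only and lower in CD4 cells only, in both lineages, with 95% intervals that cover counting error only. The histone genes and Mki67 lie left of 0 in CD8 cells and near 0 in CD4 cells, and Nkg7 lies left of 0 in CD4 cells alone.

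Few cells carried the division genes. A cell was called dividing at 3 or more UMIs over 23 division genes. That gave 127 CD8 cells in WT-CTRL (2.58%) and 98 in WT-DOX (1.92%), and 93 (4.25%) and 74 (4.06%) CD4 cells. Thinned to 1500 UMIs a cell, the shares were 1.87% and 1.32% of CD8 cells, a ratio of 0.704 (0.514 to 0.965), and 2.44% and 2.92% of CD4 cells, a ratio of 1.20 (0.818 to 1.76). The CD8 ratio over the CD4 ratio was 0.588 (0.358 to 0.965) thinned and 0.778 (0.524 to 1.16) unthinned, so the lineage difference in the share of dividing cells rests on the thinned count. Dividing CD8 cells held a median of 14860 and 14670 UMIs, against 3570 and 3534 in the other CD8 cells, and gave 10.8% of the CD8 UMIs in WT-CTRL and 8.29% in WT-DOX. For CD4 cells those shares were 18.4% and 17.0%.

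Levels also differed among the dividing cells themselves. These cells were chosen by their UMIs of division genes, so levels of such genes within them depend on that choice and are a description only. In dividing CD8 cells Mki67 was at 544 CPM in WT-CTRL and 377 in WT-DOX, and in dividing CD4 cells at 699 and 702. Hist1h1b was at 3337 and 2182 CPM in dividing CD8 cells and 2922 and 3543 in dividing CD4 cells, and in the knockout-labelled pair at 3206 and 2731 in dividing CD8 cells. Those UMIs come from 74 to 127 cells a library and lineage in the control genotype, so counting intervals on UMIs understate their error. Without the dividing cells, 8 genes were lower in CD8 cells only, 6 of them from the 29. Read without the level floor, 20 of the 29 were still past the size in CD8 cells and 28 kept their direction. Their medians were then -0.36 in CD8 and -0.14 in CD4 cells. Division genes can leave the class there by level alone, as Hist1h1b stood at 4.45 and 2.51 CPM in the CD8 cells not called dividing. Of the shared genes, 18 of the 22 higher and 46 of the 62 lower in both stayed in their class. Because of the level floor, these counts do not compare how far the classes depend on dividing cells. In the CD8 cells not called dividing, Il7r was at 451 and 618 CPM and Bbc3 at 26.3 and 46.8, and in such CD4 cells at 339 and 498 and at 21.6 and 51.6.

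**Figure D4:**
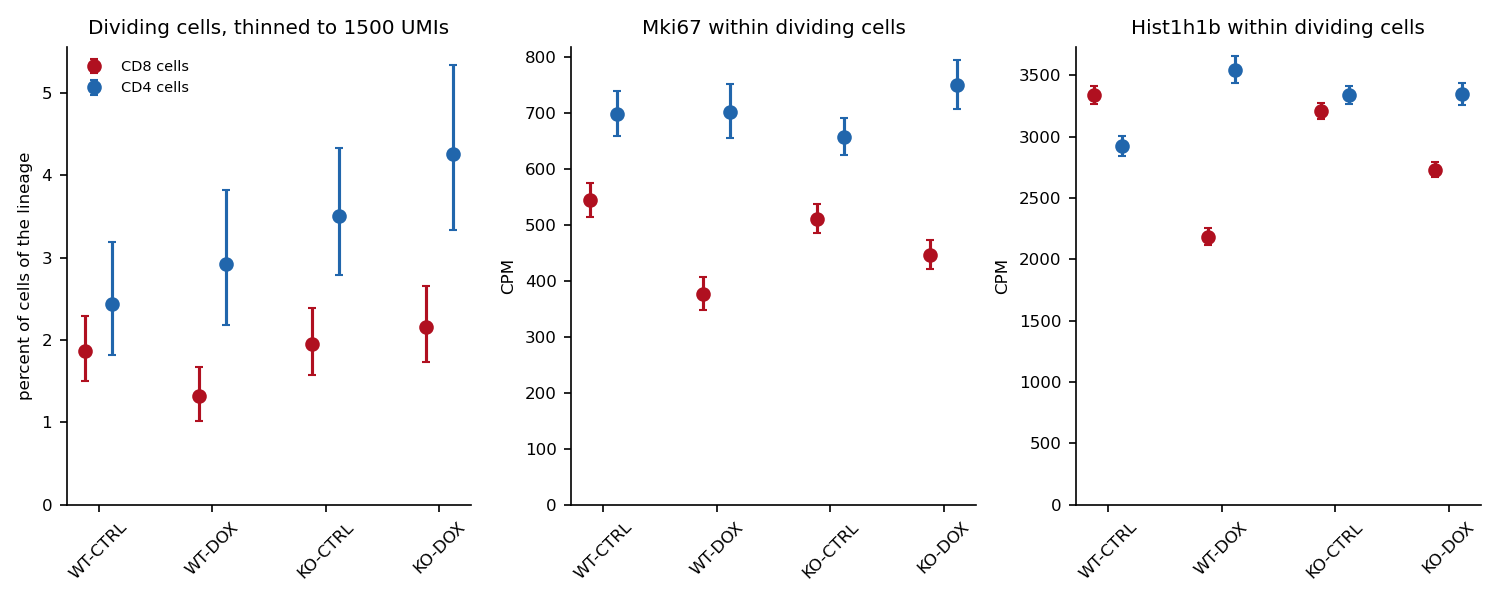
Share of cells called dividing at 1500 UMIs a cell (percent), and CPM of Mki67 and Hist1h1b within dividing cells, for each library and lineage, with 95% intervals that cover counting error only. WT-DOX has the lowest CD8 points of all 3 measures, at 1.32%, 377 CPM and 2182 CPM, while its CD4 points are not below WT-CTRL.

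Rrm2 and Zfp981 were called in opposite directions. Rrm2, a subunit of ribonucleotide reductase, was at 45.8 and 26.0 CPM in CD8 cells, a log2 fold of -0.79, and at 67.1 and 89.8 in CD4 cells, 0.42, a difference of -1.21 (-1.43 to -0.99). Its CD4 value was -0.60 in cells with no UMI of 6 B cell genes, a setting that left 1308 and 1140 CD4 cells. Zfp981, a zinc finger gene, was at 59.8 and 46.8 CPM in CD8 cells and 70.9 and 99.5 in CD4 cells. Its CD8 value was 0.03 without dividing cells. The third such gene, Hist1h1a, had over 20% of its UMIs in 1 cell of a library and is not described. Higher in CD8 cells only were Zfp36, which encodes the mRNA decay factor tristetraprolin, at 430 and 542 CPM (0.33, against 0.07 in CD4 cells), and Agbl4, at 57.0 and 75.8 (0.40, against -0.13). In the CD8 cells of the knockout-labelled pair Zfp36 was past the size the other way, at 429 and 333 CPM, -0.37, and Agbl4 was at -0.09.

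Of the 16 genes higher in CD4 cells only, Ccng1 is the p53 target. It encodes cyclin G1, and went from 110 to 156 CPM in CD4 cells, a log2 fold of 0.49 (0.37 to 0.62), against 59.4 and 61.7 CPM in CD8 cells, 0.05, a difference of -0.44 (-0.60 to -0.27). In KO-CTRL and KO-DOX CD4 cells it was at 120 and 157 CPM. Its CD4 value was under the size at 0.29 without dividing cells, and at 0.26 with each cell given the same weight. Cdkn1a could be called in CD4 cells only because it was below 30 CPM in CD8 cells: it went from 16.0 to 32.6 CPM in CD4 cells, 0.98 (0.70 to 1.27), and from 7.41 to 9.25 in CD8 cells, 0.28, a difference of -0.70 (-1.09 to -0.30). KO-CTRL and KO-DOX CD4 cells held 12.5 and 25.1 CPM of Cdkn1a, so both pairs had the higher CD4 level. The class also held Gm43305 (53.1 and 89.0 CPM in CD4 cells), Gm42047 (34.5 and 58.7), Als2cl (29.1 and 43.1), the deacetylase Sirt7 and the nuclear envelope gene Sun2, as well as the receptor segments Trbv26 and Trbv31, which follow clones.

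Over the p53 target list, the same 15 genes at the level in both lineages had a median of 0.05 in CD8 cells and 0.20 in CD4 cells, with 3 and 5 of them called higher, against 0.742% and 1.61% of all genes. The p53 list also held 1 gene called lower in CD8 cells, the ribonucleotide reductase subunit Rrm2b, at 45.4 and 34.9 CPM, -0.37, which was at -0.25 in CD4 cells. Bax, the pore-forming protein on which PUMA acts, was at 105 and 129 CPM in CD8 cells, 0.29, and at 115 and 162 in CD4 cells, 0.49. Mdm2, the ligase that removes p53, was at 0.05 and 0.07 and was called in neither lineage. Bcl2, which opposes Bax, was at 135 and 166 CPM in CD8 cells, 0.29, and 106 and 153 in CD4 cells, 0.52. Bax and Bcl2 were thus past the size in CD4 cells and under it in CD8 cells, and neither was assigned to 1 lineage. On the BCL2 family list, 1 of 6 genes at the level was higher and none lower in CD8 cells. In CD4 cells 3 of 8 were higher and 1 lower, Bcl2a1d, which went from 82.2 to 59.2 CPM, -0.47. On the DNA repair and checkpoint list, none of 12 genes at the level in CD8 cells and none of 14 in CD4 cells was called. Of all genes 2.92% were called lower in CD8 cells and 2.74% in CD4 cells, so no call in so few genes is near the background. On the integrated stress and growth restraint list, 3 of 11 genes were higher in CD8 cells and 4 of 11 in CD4 cells, and none was lower.

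The 11 genes lower in CD4 cells only were led by Nkg7, a granule protein of cytotoxic cells. It went from 35.9 to 16.5 CPM in CD4 cells, a log2 fold of -1.08, against 578 and 629 CPM in CD8 cells, 0.12, a difference of 1.20 (0.91 to 1.5). KO-CTRL and KO-DOX CD4 cells held 54.4 and 71.0 CPM, the opposite order. At 1500 UMIs a cell, Nkg7 was detected in 2.20% and 0.917% of CD4 cells, a ratio of 0.417 (0.237 to 0.734), and unthinned in 4.25% and 2.52%. Such shares are low, and the level in CD4 cells is a small part of that in CD8 cells, whose free RNA was not measured. Tnfsf8, the CD30 ligand, was at 249 and 198 CPM in CD4 cells and 34.4 and 41.3 in CD8 cells. S100a6, another calcium-binding protein, was at 294 and 221 CPM in CD4 cells, -0.41, and Gbp2, an interferon-induced guanylate-binding protein, at 52.4 and 40.5, -0.36, against 0.04 in CD8 cells. Cst7, a cathepsin inhibitor, was at the size itself, -0.32. The mitochondrial chaperone Hspd1 was at 309 and 237 CPM in CD4 cells, -0.38, but its CD4 value was 0.03 without dividing cells.

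The CD4 gate also held genes that were under 30 CPM in CD8 cells and so could not be compared between lineages, 583 in all, of which 22 were higher and 28 lower. On the follicular helper list, 1 of 16 genes at the level was higher and 5 lower in CD4 cells (median -0.03), against 1.61% and 2.74% of all genes. Maf, a transcription factor of helper cells, went from 140 to 100 CPM, -0.47, Cd200 from 79.1 to 50.9, -0.62, and the helper cytokine Il21 from 35.6 to 27.2, -0.38. Tox2, a factor of the same helper cells, went the other way, from 53.6 to 69.3 CPM, 0.37, and Pdcd1 was level at 39.9 and 40.2. In the knockout-labelled pair Maf was at 0.29 and Tox2 at 0.79. On the regulatory T cell list 1 of 12 genes was higher and none lower, against the same shares, and Foxp3, its defining factor, was detected at 1500 UMIs in 41 of 2092 and 36 of 1745 CD4 cells (5.02% and 5.10% unthinned) against 4 of 4811 and 8 of 5009 CD8 cells. Areg, the epidermal growth factor family ligand amphiregulin, was at 77.4 and 109 CPM, 0.48, and Fkbp5, a glucocorticoid-responsive chaperone, at 32.4 and 47.2, 0.53. Among 124 genes at the level in CD8 cells only, 2 were higher and 5 lower, with Ccl5, a chemokine of effector cells, at 143 and 187 CPM, 0.38, Gzma at 166 and 126, -0.39, and Lgals3 at 42.3 and 25.4, -0.71.

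Homing and egress genes did not go together. S1pr1, the receptor for egress from the node, was at 334 and 259 CPM in CD8 cells, -0.36, and 329 and 272 in CD4 cells, -0.27. Klf2, the factor that drives it, was at 0.21 and 0.28, and Ccr7, the homing chemokine receptor, at 0.03 in each. Cd69, which removes S1PR1 from the surface, was at 0.21 in CD8 cells and 0.37 in CD4 cells.

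Some of the other gene lists are given by their counts, with medians for part of them, and the counts of the remaining lists are not reported here. No member was called in either lineage on the MHC class I presentation, glycolysis and mitochondrially encoded lists. These had 22, 12 and 11 genes at the level in CD8 cells and 22, 13 and 10 in CD4 cells. The heat shock list had 1 of 20 lower, in CD4 cells. On the G2 and M phase list 4 of 11 genes were lower in CD8 cells (median -0.22) and 4 of 20 in CD4 cells (-0.16), and over the same 10 genes the medians were -0.24 and -0.13. On the S phase list the medians over the same 14 genes were -0.17 in CD8 cells and 0.03 in CD4 cells. The cytokine receptor list had 3 of 23 and 4 of 26 genes higher and none lower, with Il7r and Socs3 called in both lineages. The AP-1 list had 3 of 15 and 2 of 16 higher and none lower (medians 0.20 and 0.13). These counts are read against 0.742% higher and 2.92% lower in CD8 cells and 1.61% and 2.74% in CD4 cells.

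**Figure D5:**
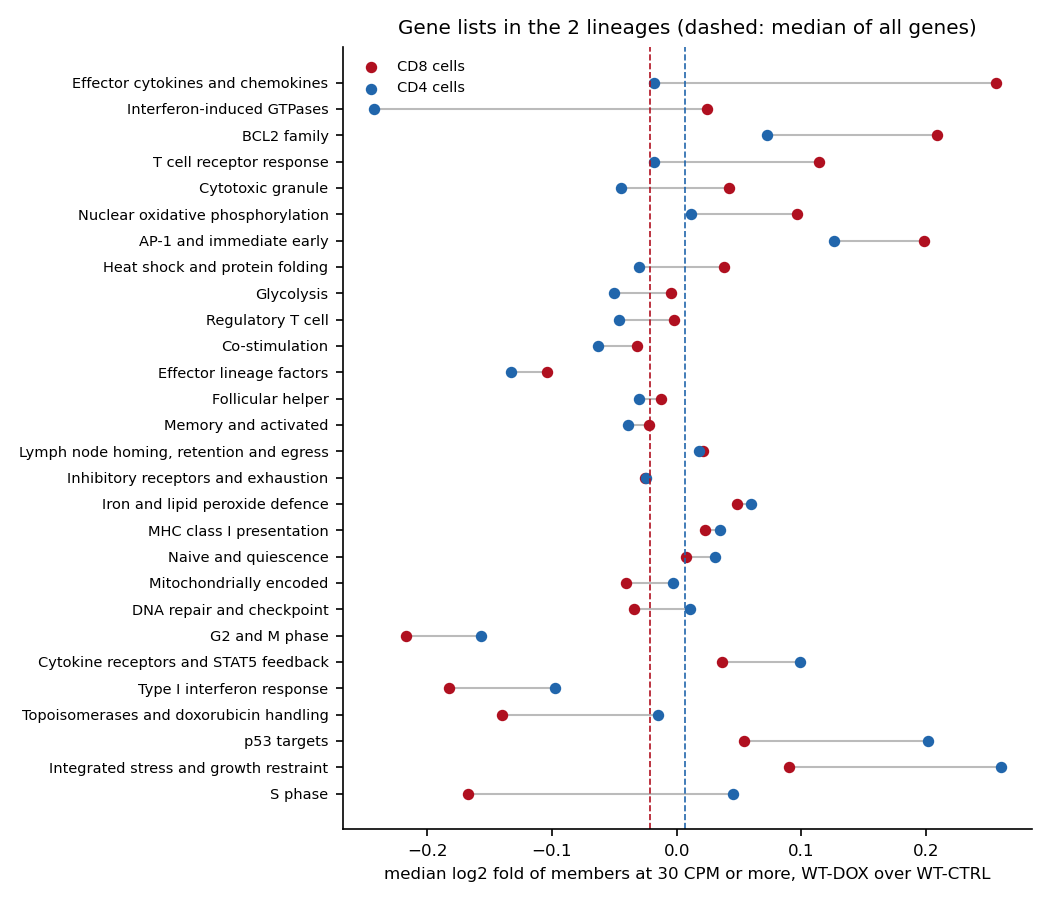
Median log2 fold of each gene list, WT-DOX over WT-CTRL, in CD8 and CD4 cells, over the members at 30 CPM in that lineage, with dashed lines at the medians of all genes. The p53 target and S phase lists have lower medians in CD8 cells (0.05 and -0.17) than in CD4 cells (0.20 and 0.05), and the type I interferon list is below 0 in both.

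Set beside the separate knockout-labelled pair, 5 of the 21 shared higher genes that could be compared were past the size the same way in both lineages of KO-DOX over KO-CTRL, namely Cdk5rap1, Ddit4, Ehbp1, Slc15a2 and Tsc22d3, against 0.184% of 4354 genes. Of 58 shared lower genes 1 was, Rtp4, against 0.299%. The medians of these classes in that pair were 0.15 and 0.22 for the higher genes, against 0.57 and 0.53 in the control genotype, and -0.08 and -0.12 for the lower genes, against -0.45 and -0.44. Of the 29 genes lower in CD8 cells only, 2 were lower past the size in CD8 cells of that pair (Tmem56 and Il31ra), against 0.735% of all genes. Both were lower past the size in its CD4 cells too, against 0.299% in both lineages, so neither was a CD8-only difference there. For the CD4-only genes, 4 of 16 higher genes were higher in its CD4 cells, against 1.24%, and of the 11 lower genes none was lower, against 0.689%, and 4 were higher.

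The class members were also read for where each library of the control genotype stood among all 4. WT-CTRL had the lowest level in both lineages for 15 of the 22 shared higher genes, and WT-DOX the highest for 12. For the 62 shared lower genes WT-CTRL was the highest in both lineages for 51 and WT-DOX the lowest for 55, with both holding for 45. These genes were chosen for the gap between those 2 libraries, which favours such places, so the counts are a description only. The treatment and any other difference between the 2 single libraries cannot be told apart.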

How the data were processed

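The authors deposited a matrix of counts for each of the 4 libraries, with whole-number UMIs per gene and barcode and at least 500 UMIs in each barcode of the control genotype. Libraries were made with a SeekOne DD 5' kit, per the labels' protocols, and the submitters' processing notes name mm10 as the build. The sources used here give no aligner, cell caller or doublet step, and no doublet caller was run; cells with UMIs of both lineages were left out by the gates. UMIs were summed per library and lineage and divided by their total to give CPM with pandas 2.3.3, numpy 2.4.6 and scipy 1.17.1 in Python 3.11.15, and plotted with matplotlib 3.10.9. Levels have exact Poisson intervals, and folds and share ratios 95% intervals from the same counts. Positions and lengths come from GENCODE M21, which holds 32158 of 32285 gene identifiers. The classification was tested on simulated Poisson counts drawn from the WT-CTRL levels. These hold counting error only and no variation between cells, animals or libraries, so they cannot show how often such variation gives a call.

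The members, the 29 gene lists and the division genes were chosen with earlier results of these data known. Genes were named by rule: the 10 shared genes in each direction with the largest folds, the 8 of each one-lineage class with the largest lineage difference, all called in opposite directions, up to 2 of each list in each direction, and a set of p53, homing, interferon and checkpoint genes. Some of these are not reported here, and other class members were named after their values were seen. Alternatives were another scaling, floor, pseudocount, size, weighting, cell filter and gate, and, added after seeing the data, leaving out barcodes found in another library and leaving out dividing cells.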

Additional observations from a re-analysis of the deposited data

Results flagged for a closer look

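Zfp981 and Rrm2 had log2 folds past the size in opposite directions in the lineages, -0.35 in CD8 and 0.48 in CD4 cells for Zfp981, and -0.79 and 0.42 for Rrm2. Each lineage is 1 library pair, so beyond the counting intervals the difference was not tested.

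S100a4 was lower in WT-DOX than in WT-CTRL, at -0.57 in CD8 and -0.40 in CD4 cells, while in the knockout-labelled pair it was at 0.04 and 1.07. 9930111J21Rik2 was higher in WT-DOX in both lineages, at 1.45 in CD8 and 1.59 in CD4 cells, and lower in KO-DOX, at -0.36 and -0.28. These differences between genotype labels were not tested, since each label has 1 library per treatment.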

How the results depend on the processing

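No paired analysis was possible because each group is 1 library. With no replicates, differences between animals, sorts and library preparations cannot be told apart from the treatment, and counting intervals understate the error. Median-of-ratios scaling moved all folds by 0.0218 in CD8 and -0.0065 in CD4 cells. Of 2498 values of named genes under the alternatives, 2272 kept direction and side of the size, 162 were under it, 41 past it and 23 reversed, and 45 of 90 class counts moved by over 1.5 times. The counts are 22 shared higher, 62 shared lower, 2 CD8-only higher, 29 CD8-only lower, 16 CD4-only higher and 11 CD4-only lower genes. They moved as follows, and the cause was not tested except where fewer genes or cells entered by construction. The CD8-only higher count became 7 under median-of-ratios scaling, 9 at a floor of 10 CPM, 1 at 100 CPM, 0 at sizes of 0.5 and 0.25, 5 under stricter gates and 20 without cells with 2 UMIs of the G2 and M list, which removed most cells. It was 4 with each cell given the same weight, with at most 5 UMIs of a gene per cell, under the stricter filter of 800 genes and 5% mitochondrial UMIs, without the 5% of cells with the most UMIs, without barcodes of another library and without dividing cells. The CD8-only lower count was 85 and 8 at floors of 10 and 100 CPM, 13 at the larger size, 16 with equal weights, 12 without the 5% of cells with the most UMIs, 18 without G2 and M list cells, 6 in resting cells and 8 without dividing cells. The CD4-only higher count was 77 and 0 at those floors, 4 at the larger size, 33 with equal weights, 85 under stricter gates, 51 with no UMI of 6 B cell genes, 26 without the 5% of cells with the most UMIs, 94 without G2 and M list cells and 39 in resting cells. The CD4-only lower count was 18 under median-of-ratios scaling, 38 and 4 at those floors, 2 at the larger size, 21 with equal weights, with at most 5 UMIs of a gene and in resting cells, 56 under stricter gates, 25 with no B cell gene and 63 without G2 and M list cells. The shared higher count was 10 at 100 CPM and at the larger size, and 46 without G2 and M list cells. The shared lower count was 106 and 26 at those floors and 11 at the larger size. Among reversed values were, for Hspd1 in CD4 cells, 0.060 with at most 5 UMIs, 0.14 in resting cells, 0.15 without G2 and M list cells, 0.030 without dividing cells and 0.073 without the 5% of cells with the most UMIs. In the last setting Cxcl10 and Gzmb in CD4 cells were at 0.069 and 0.28 and Hells in CD8 cells at 0.097. In resting cells Bcl2a1d, Cst7, Cxcl10 and Ifit3 in CD4 cells were at 0.0083, 0.049, 0.46 and 0.090, and Hells, Stmn1, Zfp981 and the S phase median in CD8 cells at 0.20, 0.38, 0.12 and 0.011. Without dividing cells Hells, Stmn1, Zfp981 and the S phase median in CD8 cells were at 0.027, 0.19, 0.029 and 0.0052. Without G2 and M list cells Stmn1 and the G2 and M and S phase medians in CD8 cells were at 0.37, 0.13 and 0.018, and Tnfsf8 and Zfp981 in CD4 cells at 0.32 and -0.015. With no UMI of 6 B cell genes Ccl5, Rrm2 and the median of effector lineage factors in CD4 cells were at -0.46, -0.60 and 0.0018. Under stricter gates the median of interferon-induced GTPases in CD4 cells was 0.14.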
